A study of Mus musculus with 12 samples.

Results

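The 7 genes described here are protein-coding genes of the mouse mitochondrial genome, measured in C2C12 myotubes treated with BAM15 or with vehicle. They were chosen by symbol: every protein-coding gene of the count table whose symbol begins with mt- was taken, which gave 7 of the 15113 genes listed. These are mt-Nd1, mt-Nd2, mt-Co1, mt-Nd4, mt-Nd5, mt-Nd6 and mt-Cytb. The choice named 4 of them (mt-Co1, mt-Nd1, mt-Nd2 and mt-Nd5) with their earlier results known and added the other 3 as the remaining rows, so the tests on those 4 are not independent of the choice. The annotation lists 13 protein-coding genes in mitochondrial DNA, and the other 6 (mt-Co2, mt-Atp8, mt-Atp6, mt-Co3, mt-Nd3 and mt-Nd4l) were not analysed here. The table also holds rows for both mitochondrial ribosomal RNAs and for 12 of the 22 transfer RNAs, without symbols. They were named by their identifiers and are used below to place the 7 genes along the genome.

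C2C12 is an established line of mouse myoblasts that fuse into myotubes when serum is reduced. Confluent cells were differentiated in horse serum, and the myotubes then received 20 µM BAM15, a protonophore that uncouples mitochondrial respiration from ATP synthesis, or the DMSO vehicle alone, for 16 h. Each condition had 6 libraries of polyadenylated RNA. All came from 1 cell line without genetic change, and the labels do not say whether the libraries of a condition came from separate cultures, so the p-values measure the spread between these libraries, which may be technical.

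Total counts ranged from 13983725 to 18866728 per library. All 8 myotube markers examined were in the table, and their summed level was 17732.5 to 19484 CPM (counts scaled to equal library totals) in vehicle and 17562 to 20649 CPM after BAM15. Of these 8, 2 rose and 3 fell by the rule defined below. Each such count here stands beside the 22.0% of all genes tested that rose and the 20.3% that fell. The 4 markers of proliferating myoblasts, of which 1 rose and 3 fell, summed to 229 to 276 CPM in vehicle and 103 to 123 CPM after BAM15, and the 2 of 3 fibroblast markers listed, of which 1 fell, summed to 245 to 270 and 133 to 182 CPM. Of the immune markers 1 of 2 was listed (Cd68), at 0.588 to 1.11 CPM in vehicle and 3.22 to 4.21 CPM after BAM15. Endothelial and neuronal markers had no row, and of the 3 adipocyte markers the 1 listed stayed at or below 0.160 CPM. The myoblast, fibroblast and Cd68 levels thus differed between the conditions together with the mitochondrial transcripts, and their part in the results was not tested. In RNA from whole cultures, fewer cells of a type and less RNA per cell cannot be told apart.

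Mitochondrial DNA is a small circle present in many copies per cell. Both of its strands are copied into long precursors that carry several genes each, and most messengers are released when the transfer RNAs that lie between them are cut out. The messengers, in most cases, then receive a poly(A) tail, which in several genes also completes the stop codon. Their products are core subunits of the respiratory chain: the ND proteins belong to complex I (NADH dehydrogenase), cytochrome b to complex III, and CO1 to complex IV (cytochrome c oxidase), where it holds the site of oxygen reduction. In skeletal muscle these complexes drive the proton gradient that an uncoupler dissipates.

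The assay was a 3′ tag method: reverse transcription starts from oligo(dT) on the poly(A) tail, and each molecule gives reads near its 3′ end. The last 30 bases of the 7 annotated transcripts are therefore shown. Where the tail of each messenger starts was not examined, and it may lie beyond these bases. They come from the GENCODE M21 transcripts of GRCm38, are written 5′ to 3′, and have the stop codon, or the part of it that the DNA encodes, in capitals.
mt-Nd1, chrM:3678-3707, plus strand: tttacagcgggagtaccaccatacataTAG
mt-Nd2, chrM:4922-4951, plus strand: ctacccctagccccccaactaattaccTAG
mt-Co1, chrM:6843-6872, plus strand: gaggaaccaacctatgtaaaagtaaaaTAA
mt-Nd4, chrM:11515-11544, plus strand: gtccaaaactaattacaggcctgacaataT
mt-Nd5, chrM:13536-13565, plus strand: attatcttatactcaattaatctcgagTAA
mt-Nd6, chrM:13552-13581, minus strand: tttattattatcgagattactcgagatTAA
mt-Cytb, chrM:15259-15288, plus strand: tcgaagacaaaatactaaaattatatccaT
mt-Nd4 and mt-Cytb end in a lone T, and their stop codon is complete only with the tail. The annotated ends of mt-Nd5 and mt-Nd6 overlap at positions 13552 to 13565 on opposite strands. Whether counting used strand is not given in the sources used here, so reads inside that overlap cannot be told apart between these genes.

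Oligo(dT) can also pair with runs of A inside a transcript, so runs of at least 6 A were located. mt-Nd6 and mt-Cytb had none. mt-Nd1 and mt-Co1 had 1 each, mt-Nd4 and mt-Nd5 had 2 each, and mt-Nd2 had 3. The longest run of each of the other 5 genes (the first of 2 equal ones in mt-Nd4) is shown in capitals with its surroundings.
mt-Nd1, chrM:3608-3637: acatcttctatgAAAAAActttctacccct
mt-Nd2, chrM:4040-4071: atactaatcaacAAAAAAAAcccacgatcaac
mt-Co1, chrM:6104-6134: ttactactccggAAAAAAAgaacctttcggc
mt-Nd4, chrM:10215-10245: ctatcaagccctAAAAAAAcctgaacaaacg
mt-Nd5, chrM:12624-12654: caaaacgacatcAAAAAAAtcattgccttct
The run in mt-Nd1 lay 82 bases before the transcript's annotated end, and that in mt-Co1 lay 750 bases before it. mt-Nd5 and mt-Nd2 also held runs of 6 A nearer to their ends than those shown, the nearest at 143 and 220 bases. In mt-Nd4 the nearest run lay 1120 bases before the end. Among all stretches of 30 bases, 2.82% of those in the 7 transcripts held the letters AAAAAA, against 1.17% in nuclear protein-coding transcripts. The count table gives no position of a read within a gene, so which of these sites gave reads was not tested.

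Nuclear DNA carries copies of parts of the mitochondrial genome, and a read that matches both cannot be assigned by sequence. Each transcript was therefore compared, in windows of 50 bases, with all annotated nuclear transcripts. The labels give reads of 50 bases and the study's methods 75, so windows of 75 bases were compared too. mt-Nd1, mt-Nd6 and mt-Cytb shared no window with any of them at either length. mt-Nd2 shared 8.19% of its windows of 50 bases and 5.71% of those of 75, and mt-Nd5 7.61% and 1.66%. mt-Nd4 shared 62.2% and 61.5%, all within its first 876 bases, and no window of its last 400 bases was shared. mt-Co1 shared 51.1% and 39.8%, and its last 479 bases were shared throughout at both lengths, over 430 windows of 50 bases with Gm29216 (chr1:24615706-24616197), a nuclear copy with no row in the table. Only annotated transcripts were searched, and how counting treated reads with several matches is not given in the sources used here.

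**Figure D1:**
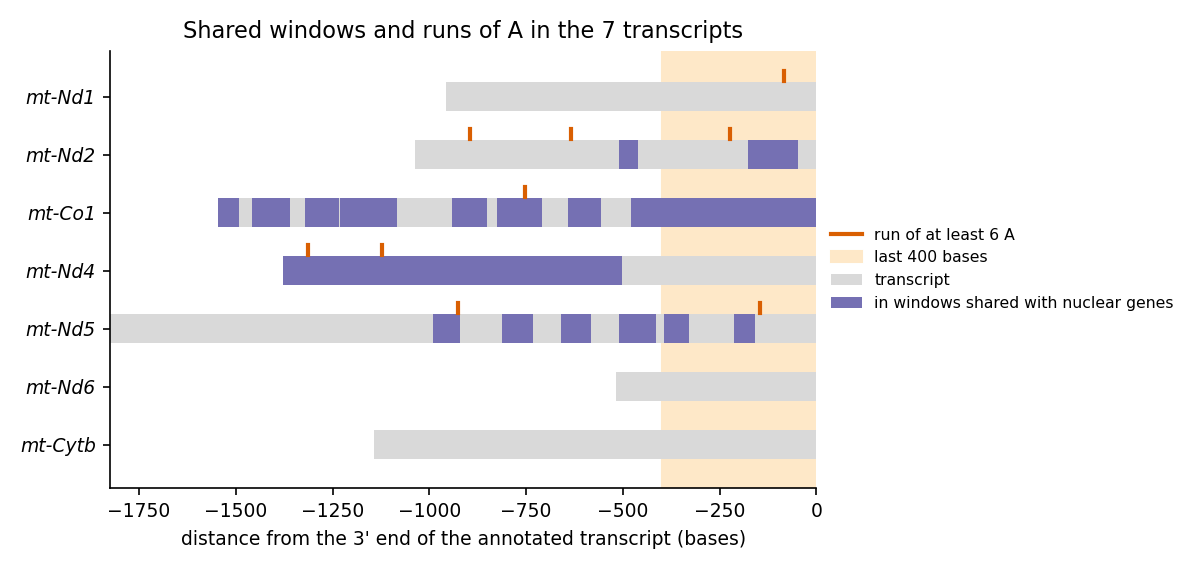
Map of the 7 mitochondrial protein-coding transcripts, each a bar to scale, with the distance in bases from its annotated 3′ end on the horizontal axis and the last 400 bases tinted. Purple stretches lie in 50-base windows identical in an annotated nuclear transcript, and orange marks are runs of at least 6 A. The 3′ end of mt-Co1 was shared over its last 479 bases, whereas mt-Nd1, mt-Nd6 and mt-Cytb held no shared window.

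The 7 transcripts moved in different directions after BAM15. mt-Co1 and mt-Nd5 rose, mt-Nd1 and mt-Nd2 fell, and mt-Nd4, mt-Nd6 and mt-Cytb did not pass the test. A gene is said to rise or fall where its adjusted p was below 0.01 in the quasi-likelihood test of edgeR, adjusted by Benjamini-Hochberg over all 12730 genes tested. By this rule 4 of 7 passed, and 42.3% of all genes tested did (22.0% higher and 20.3% lower). With a mean normalized count above 50 and a change above 2-fold also required, 3 of 7 passed (mt-Co1 and mt-Nd5 higher, mt-Nd2 lower), against a background of 7.28% (3.70% higher and 3.58% lower). The conditions did not overlap in 4 of 7 genes, and in 34.2% of all genes (17.1% higher and 17.0% lower). The median log2 fold change was -0.38 over the 7 genes, which ranged from -1.13 to 2.23, and 0.02 over all genes tested. All 7 had enough reads to be tested, while 2383 of the 15113 listed genes did not.

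mt-Co1 (positions 5328 to 6872, plus strand), the complex IV gene, showed the largest change of the 7. Its normalized count was 6022 at the lowest, 7087 at the median and 8312 at the highest in the 6 vehicle libraries, and 30377, 32636.5 and 38511 in the 6 BAM15 libraries. Every BAM15 library thus lay above every vehicle library, and by a wide margin. The mean rose from 7066 ± 854 to 33155 ± 2959 (SD, n = 6 each), a log2 fold change of 2.23 (SE 0.09), or 4.69-fold, with an adjusted p of 2.02e-11 by edgeR. The rise was as large in the libraries numbered 1 to 3 (2.23) as in those numbered 4 to 6 (2.22). These are counts of reads assigned to mt-Co1, whose last 479 annotated bases were shared throughout with a nuclear copy. Which part of the transcript the counted reads came from was not tested, nor was the part of multiple matches in the rise.

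mt-Nd5 (11742 to 13565, plus strand), which encodes a large membrane subunit of complex I, was the other gene that rose. Its normalized count ran from 5376 through a median of 6795 to 7699 in vehicle, and from 12018 through 13497 to 14436 after BAM15. The highest vehicle library was below the lowest BAM15 library. Mean levels were 6606 ± 923 and 13351 ± 852 (SD, n = 6 each), a 2.02-fold rise with an SE of 0.09 on the log2 scale and an adjusted p of 1.22e-07 by edgeR. It lay just past the 2-fold threshold and fell short of it, at log2 fold changes of 0.96 to 0.99, in 7 of 27 alternatives. These were upper quartile scaling, library size only, the libraries numbered 1 to 3 alone, the normalized signal, and leaving out BAM15 replicate 1 or vehicle replicate 3 or 4.

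mt-Nd1 (2751 to 3707, plus strand) encodes the complex I subunit next to the quinone site. Its normalized count was 29731 at the lowest, 39888 at the median and 49997 at the highest in vehicle, and 18948, 20446 and 22826 after BAM15. All BAM15 libraries lay below all vehicle libraries, and they were also closer together. The mean fell from 40234 ± 8438 to 20696 ± 1307 (SD, n = 6 each), with a log2 fold change of -0.96 (SE 0.12) and an adjusted p of 6.10e-06 by edgeR. At 1.94-fold lower, it stayed just short of the 2-fold threshold, and it passed that threshold, at -1.03 to -1.02, with library size only and without vehicle replicate 3 or 4.

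mt-Nd2 (3914 to 4951, plus strand), also a membrane subunit of complex I, fell. It ranged from 41171 to 84213 in vehicle, with a median of 64938, and from 23644 to 35603 after BAM15, with a median of 28760.5. The conditions did not overlap, although the lowest vehicle library was near the highest BAM15 library. The mean fell from 63158 ± 15660 to 28929 ± 4154 (SD, n = 6 each), 2.18-fold, with a log2 fold change of -1.13 (SE 0.15) and an adjusted p of 2.79e-05 by edgeR. In the libraries numbered 1 to 3 alone the change was as large (-1.16), but the adjusted p by edgeR was 0.0139 and the call was lost.

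mt-Nd4 (10167 to 11544, plus strand), a membrane subunit of complex I, had the highest counts of the 7 in both conditions. It ranged from 72917 through a median of 95994 to 148570 in vehicle, and from 66299.5 through 82734 to 91537 after BAM15. The ranges overlapped, and 5 of the 6 BAM15 libraries lay above the lowest vehicle library. Its log2 fold change was -0.38 (SE 0.15), with an adjusted p of 0.0395 by edgeR. It passed without vehicle replicate 4, with a log2 fold change of -0.47 and an adjusted p of 0.00784 by edgeR.

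mt-Nd6 (13552 to 14070) is the 1 protein-coding gene of the minus strand, and it encodes a further membrane subunit of complex I. Its counts were lower than those of the other 6 by orders of magnitude, at 25 to 92 reads per library. The libraries were primed on poly(A), so such a count depends on the tail of a messenger as well as on its amount. These were not told apart here. Normalized, mt-Nd6 ranged from 37.3 to 81.0 in vehicle (median 57.1) and from 29.2 to 60.2 after BAM15 (median 33.7). BAM15 replicate 1 was the high one, and 5 of the 6 BAM15 libraries lay below every vehicle library. The log2 fold change was -0.71 (SE 0.22), with an adjusted p of 0.0135 by edgeR. It passed in 8 alternatives at the same threshold, among them DESeq2 (adjusted p 0.00506) and, by edgeR, without BAM15 replicate 1 (log2 fold change -0.91, adjusted p 0.00159) or without vehicle replicate 3 (-0.82, 0.00471).

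mt-Cytb (14145 to 15288, plus strand), the complex III gene, ranged from 25480 to 44054 in vehicle, with a median of 34433, and from 29308 to 48500 after BAM15, with a median of 38688.5. The conditions overlapped over most of their range. The log2 fold change was 0.19 (SE 0.16), with an adjusted p of 0.336 by edgeR. It was 0.01 in the libraries numbered 1 to 3 and 0.31 in those numbered 4 to 6.

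**Figure D2:**
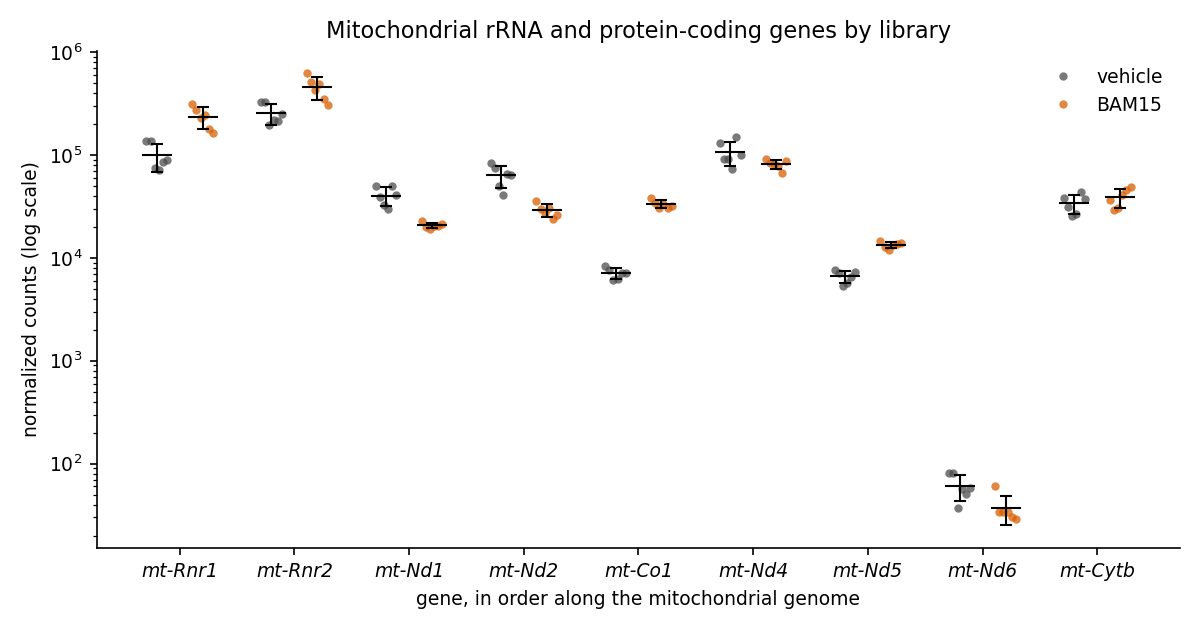
Normalized counts of both ribosomal RNA genes and the 7 protein-coding genes in each of the 12 libraries, in genome order and on a log axis, with 1 point per library and lines for the mean and its SD in each condition (n = 6). Among the 7, the conditions are apart for mt-Co1 and mt-Nd5, which were higher after BAM15, and for mt-Nd1 and mt-Nd2, which were lower; the other 3 overlap.

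The ribosomal RNA genes precede the protein-coding genes on the plus strand, and their products form the RNA of the mitochondrial ribosome. mt-Rnr1 (70 to 1024) rose: it ranged from 70697 to 137219 in vehicle, with a median of 87429, and from 163568 to 312283 after BAM15, with a median of 236719. Its conditions did not overlap, and its log2 fold change was 1.24 (SE 0.20), or 2.36-fold, with an adjusted p of 1.73e-04 by edgeR. mt-Rnr2 (1094 to 2675) ranged from 196306 to 327868 in vehicle, with a median of 232641, and from 306555 to 620781 after BAM15, with a median of 462665. It rose by a log2 fold change of 0.83 (SE 0.18), with an adjusted p of 0.00134 by edgeR, and its conditions overlapped. For both, BAM15 replicate 1 was the highest library and BAM15 replicate 6 the lowest of its condition. In the libraries numbered 1 to 3 alone neither mt-Rnr1 nor mt-Rnr2 passed, with adjusted p-values of 0.0265 and 0.0529 by edgeR, although the changes were of like size. These reads also came from libraries primed on poly(A), and which molecules or sites gave them was not tested. mt-Rnr2 held runs of at least 6 A, the nearest 400 bases before its annotated end, and mt-Rnr1 held none. mt-Rnr2 is followed on the same strand, after mt-Tl1, by mt-Nd1, which fell.

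Transfer RNA genes, whose mature products carry amino acids to the mitochondrial ribosome, separate many of the others, and reads on their rows were few. Of the 10 tested, 1 rose, 5 fell and 4 did not pass, where 22.0% of all genes tested rose and 20.3% fell. The libraries were primed on poly(A), and which molecules gave the reads on these rows was not tested. mt-Tl1 (2676 to 2750), which lies between mt-Rnr2 and mt-Nd1, rose: it had between 65.0 and 128 normalized counts in vehicle and between 221 and 636 after BAM15, a log2 fold change of 2.31 (SE 0.25) with an adjusted p of 4.63e-06 by edgeR. Vehicle and BAM15 values were thus apart, in contrast with its overlapping neighbour mt-Rnr2. The 5 that fell were mt-Tv, mt-Ta, mt-Tc, mt-Tl2 and mt-Tt, with log2 fold changes of -0.73, -1.23, -2.30, -1.28 and -1.77. Among these 5, only mt-Tv overlapped between the conditions. mt-Tv was the least secure of them, with an adjusted p of 0.00581 by edgeR, and it lost its call in 9 alternatives: with the libraries numbered 4 to 6 alone, and without any 1 of vehicle replicates 1 to 4 or BAM15 replicates 1, 4, 5 and 6, at adjusted p-values of 0.0102 to 0.0225 by edgeR. mt-Ta and mt-Tc, which are encoded on the minus strand, lie opposite the stretch between mt-Nd2 and mt-Co1. mt-Tl2 lies just before mt-Nd5 and mt-Tt just after mt-Cytb. Counts of mt-Tc (5 to 82 reads per library) and mt-Tt (3 to 51) were low, so the size of their changes rests on few reads. The 4 that did not pass were mt-Ti (0.17), mt-Tq (-0.08), mt-Tm (0.33) and mt-Tp (0.61). Of these, mt-Tp had an adjusted p of 0.0272 by edgeR and depended on the libraries used. It passed in numbers 1 to 3 alone (log2 fold change 0.77, adjusted p 2.20e-04 by edgeR). In numbers 4 to 6 alone it did not (0.36, adjusted p 0.289 by edgeR).

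**Figure D3:**
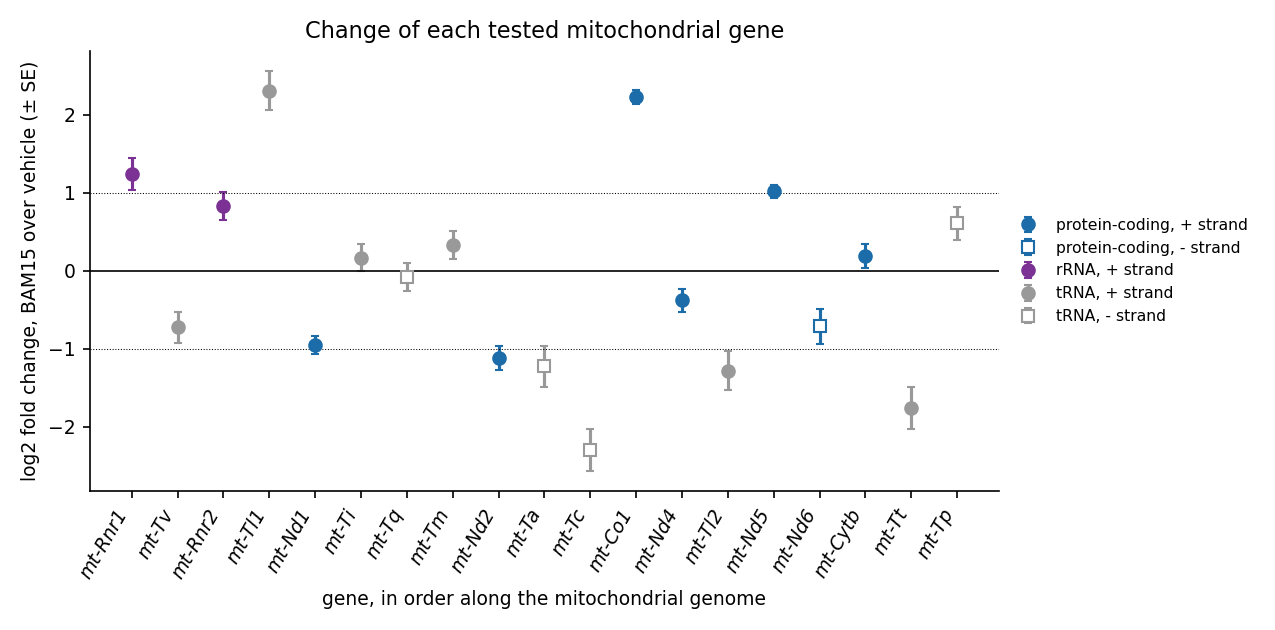
Log2 fold change of BAM15 against vehicle for the tested mitochondrial rows in their order along the genome, with bars for the standard error, open squares for the minus strand and dotted lines at a 2-fold change. Direction changes between successive ribosomal RNA and protein-coding genes, from 0.83 at mt-Rnr2 to -0.96 at mt-Nd1, and from -1.13 at mt-Nd2 to 2.23 at mt-Co1.

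Because genes of 1 strand share a precursor, each gene was also compared with its neighbour inside each library, as the log2 ratio of their counts, which does not depend on scaling between libraries. There were 8 neighbouring pairs among the 9 ribosomal and protein-coding genes. In 7 of the 8 the ratio differed between conditions at an adjusted p below 0.05, in a two-sided exact permutation test adjusted over the 8 pairs. Of these 7, mt-Cytb to mt-Nd6 did not reach an adjusted p below 0.01. A shared precursor does not make these counts equal, and ratios between genes of different length say nothing of their molar amounts here, so the differences between conditions are what is compared.

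The ratio of mt-Co1 to mt-Nd2 changed most: it was -3.13 ± 0.22 in vehicle and 0.20 ± 0.10 after BAM15 (SD, n = 6 each), a difference of 3.33 on the log2 scale. mt-Nd4 to mt-Co1 went from 3.87 ± 0.30 to 1.29 ± 0.12, a difference of -2.58, and these genes flank the stretch of the 6 genes not analysed here. mt-Nd5 to mt-Nd4 went from -3.97 ± 0.32 to -2.60 ± 0.17, a difference of 1.37. These 3 pairs, all within the plus strand, moved in alternating directions, and in each the values of the conditions did not overlap. Successive pairs share a gene, so their differences are not independent of each other or of the changes of single genes given above. mt-Nd1 to mt-Rnr2 differed by -1.76 (from -2.66 ± 0.33 to -4.42 ± 0.36) and mt-Rnr2 to mt-Rnr1 by -0.43 (from 1.39 ± 0.14 to 0.96 ± 0.05). mt-Nd6 to mt-Nd5, which lie on opposite strands, differed by -1.74 (from -6.81 ± 0.29 to -8.55 ± 0.35). All 6 pairs had an exact permutation p of 0.00216, the smallest that 6 against 6 libraries can give, and an adjusted p of 0.00289.

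The pair mt-Nd2 to mt-Nd1 stood out by its small difference. These neighbours both fell, and their ratio was 0.64 ± 0.19 in vehicle and 0.47 ± 0.17 after BAM15, a difference of -0.16 with an exact permutation p of 0.156. That p does not show that the ratio was the same. mt-Cytb to mt-Nd6 went from 9.15 ± 0.43 to 10.06 ± 0.55, with overlap, and had an exact permutation p of 0.0173 and an adjusted p of 0.0198. Within the libraries numbered 1 to 3 and 4 to 6 all 8 differences kept their sign, at 3.37 and 3.29 for mt-Co1 to mt-Nd2 and -2.51 and -2.66 for mt-Nd4 to mt-Co1. With 3 against 3 libraries the exact permutation test cannot go below 0.1.

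**Figure D4:**
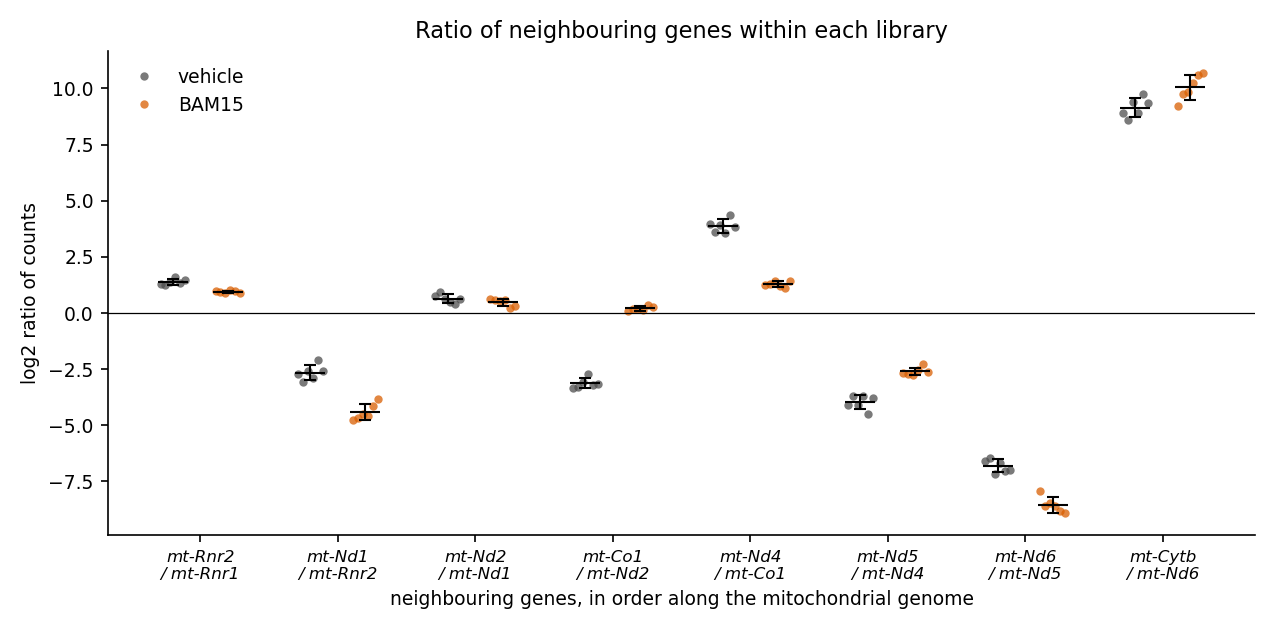
Log2 ratio of the counts of neighbouring mitochondrial genes in each library, vehicle beside BAM15, with 1 point per library and the mean with its SD. The values are apart in 6 of the 8 pairs and overlap for mt-Nd2 to mt-Nd1 and mt-Cytb to mt-Nd6.

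The 7 genes together took 1.55 ± 0.345% of all counted reads in vehicle (1.102 to 1.98%, median 1.52%) and 1.25 ± 0.0960% after BAM15 (1.14 to 1.40%, median 1.24%; SD, n = 6 each). The conditions overlapped, and the vehicle libraries spread more widely. The ribosomal RNA genes took 2.13 ± 0.519% in vehicle (1.64 to 2.79%) and 3.94 ± 0.826% after BAM15 (2.88 to 5.14%), without overlap. Together with the transfer RNA rows, mitochondrial genes took 3.70 ± 0.739% and 5.20 ± 0.817%, so the sum moved the other way from the protein-coding share. No test was run on these sums.

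The make-up of the reads on the 7 genes differed between the conditions. mt-Co1 went from 2.82 ± 0.410% of these reads to 15.3 ± 0.777%, and mt-Nd5 from 2.63 ± 0.381% to 6.19 ± 0.320%. mt-Nd2 went from 24.6 ± 3.15% to 13.4 ± 1.40% and mt-Nd1 from 15.7 ± 0.373% to 9.59 ± 0.292%. mt-Nd4 had the largest part in both conditions, at 41.0 ± 3.38% and 37.6 ± 2.73%. Among vehicle libraries mt-Co1 was thus a minor component, near mt-Nd5, and after BAM15 it was above mt-Nd1 and mt-Nd2. mt-Cytb had 13.3 ± 1.20% and 17.9 ± 3.68%, and mt-Nd6 had 0.0241 ± 0.00677% and 0.0169 ± 0.00427%, both with overlap between conditions. As parts of a whole these values depend on each other, so they only describe the mixture.

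**Figure D5:**
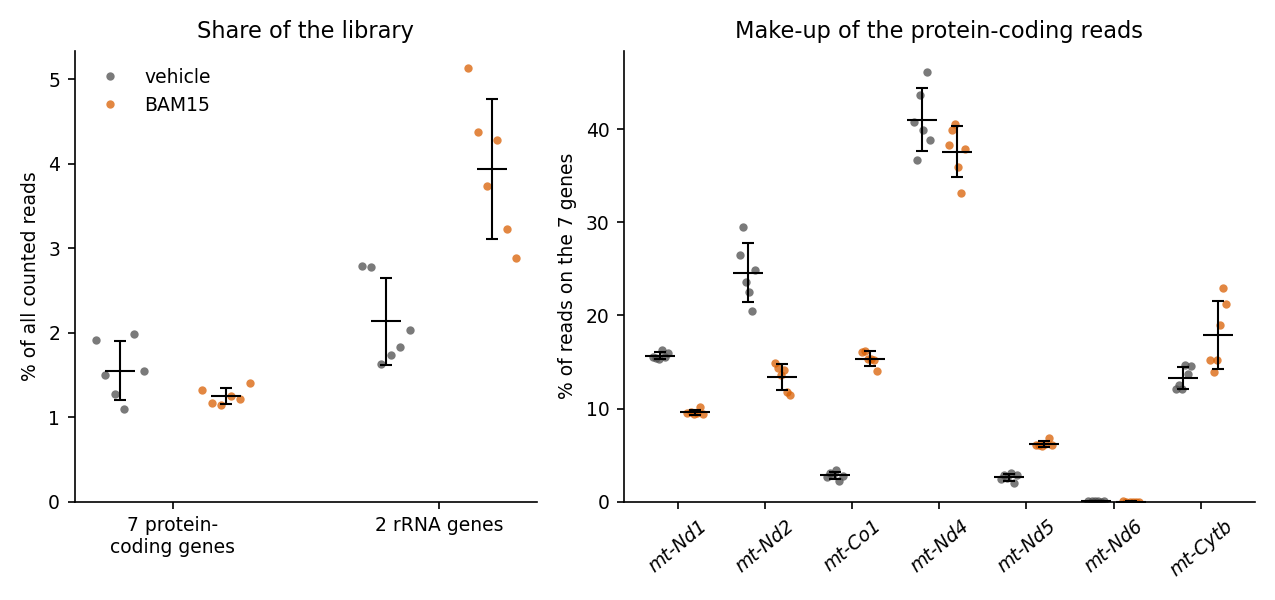
Percent of all counted reads on the 7 protein-coding and the 2 ribosomal RNA genes (left), and percent of the reads on the 7 genes that each of them took (right), with 1 point per library and lines for the mean and its SD. The share of reads on ribosomal RNA genes is higher in every BAM15 library (2.88 to 5.14%) than in every vehicle library (1.64 to 2.79%). The share of the 7 protein-coding genes overlaps, and mt-Co1 goes from 2.82 to 15.3% of their reads.

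The libraries were grouped by number into 1 to 3 and 4 to 6. Earlier results of these data gave this split and the labels do not, so tests on it are not independent of the choice. Between the groups the BAM15 change of 2.66% of all genes differed (adjusted p below 0.05 in an edgeR interaction test). The log2 fold change was higher in numbers 4 to 6 in 2.14% of all genes and lower in 0.518%. For a gene that fell, a higher value there is a smaller fall. None of the 7 mitochondrial genes differed in this way by edgeR or by DESeq2, and none had an unadjusted p below 0.05 in either. Their interaction terms lay between -0.19 and 0.31 on the log2 scale in edgeR. Fitted alone, the libraries numbered 1 to 3 gave 3 of 7 past an adjusted p of 0.01 in edgeR (44.4% of all genes), and those numbered 4 to 6 gave 5 of 7 (33.2% of all genes). The difference lay in mt-Nd2, which passed only in the latter, and in mt-Nd6, likewise.

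The 3 annotated nuclear copies that share windows with mitochondrial protein-coding genes and have rows of their own moved unequally. Gm13340 (chr2:22588103-22589647), which shares 411 windows with mt-Co1, had 4 to 12 reads in vehicle and 32 to 53 after BAM15. Its log2 fold change was 2.39 (SE 0.25), with an adjusted p of 1.02e-06 by edgeR, beside 2.23 for mt-Co1 itself. Gm28438 (chr1:24612775-24613119), a copy of mt-Nd3, had 30 to 55 and 54 to 145 reads, and a log2 fold change of 1.13 (SE 0.20) with an adjusted p of 2.61e-04 by edgeR. Gm13341 (chr2:22587291-22587962), a copy of mt-Co2, had 20 to 29 and 9 to 29 reads, a log2 fold change of -0.15 and an adjusted p of 0.594 by edgeR. Reads on these rows and on the mitochondrial genes they match cannot be told apart by sequence in the shared windows. Gm13340 had at most 53 reads in a library, and mt-Co1 at least 5770.

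Nuclear genes that keep, transcribe and process mitochondrial DNA were taken from lists of known function. Each count below stands beside 42.3% of all genes tested that passed in edgeR, 22.0% rising and 20.3% falling, and beside their median log2 fold change of 0.02. Of 16 genes for replication and upkeep, 9 rose and 7 did not pass at an adjusted p below 0.01 in edgeR, with a median log2 fold change of 0.60. Lonp1, the matrix protease that degrades TFAM among other proteins, went from 1158 ± 54.8 to 3234 ± 317 normalized counts (SD, n = 6 each). Slc25a33, a pyrimidine nucleotide carrier, went from 110 ± 13.8 to 388 ± 48.0, and the helicase Twnk from 190 ± 10.8 to 316 ± 19.4. All 3 passed the test of edgeR, and Lonp1 and Slc25a33 also changed by more than 2-fold.

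Of 10 transcription genes tested, 2 rose, 1 fell and 7 did not pass, with a median of 0.03. Those that passed included Mterf2, a member of the mitochondrial termination factor family, which fell from 136 ± 18.1 to 75.7 ± 8.68, and Tfb1m, the methyltransferase of the small ribosomal RNA, which rose from 115 ± 9.80 to 177 ± 13.3 (SD, n = 6 each). Lonp1 is counted in this list too. Of 35 genes for RNA processing, modification and stability, 12 rose, 1 fell and 22 did not pass, with a median of 0.12. The shares that passed in these 2 lists were not above that of all genes. By direction, a larger share of the 35 rose and a smaller share fell than among all genes, which was not tested. The 1 that fell was Mrm2, a methyltransferase of the large ribosomal RNA (log2 fold change -0.88, SE 0.10), and Nsun3, which modifies a mitochondrial transfer RNA, rose by 0.73 (SE 0.09). Fastk, of a family of mitochondrial RNA-binding proteins, rose by 0.32 (SE 0.06).

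Nuclear genes encode the partners of the 7 products. Of 36 nuclear complex I subunits 10 fell and 26 did not pass, with a median log2 fold change of -0.14, and of 37 nuclear subunits of complexes III to V 2 rose, 11 fell and 24 did not pass, with a median of -0.13. In both lists a smaller share passed than among all genes. By direction, a larger share fell and a smaller share rose in each than among all genes, which was not tested. Ndufc2 of complex I fell by 0.44 (SE 0.05), Ndufb7 by 0.43 (SE 0.07) and Ndufb10 by 0.27 (SE 0.05), and Uqcrq of complex III rose by 0.48 (SE 0.05) on the log2 scale. Of complex IV, Cox6a2, the muscle form of a subunit, rose by 0.67 (SE 0.07), against 2.23 for mt-Co1. Atp5g3, a gene for the membrane ring of ATP synthase, went from 22689 ± 1199 to 13856 ± 3270 normalized counts (SD, n = 6 each), and its fall differed between the libraries numbered 1 to 3 (-0.97) and 4 to 6 (-0.52), with an adjusted p of 0.0449 in the edgeR interaction test.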

How the data were processed

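The authors prepared 3′ QuantSeq libraries from C2C12 myotubes and aligned and counted single reads with BlueBee software. The deposited counts are whole reads per Ensembl gene, without normalization. The authors also deposited a normalized signal, the counts divided by 1 DESeq2 size factor per library, used here for 1 alternative. The submitters' processing notes name GRCm38 and DESeq2 1.22.2, while strand, aligner and the handling of reads with several matches are not given in the sources used here. Per the labels, reads were 50 bases long. A further 11 columns are not samples of the experiment and were not used.

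Counts were normalized by the trimmed mean of M-values (TMM factors 0.932 to 1.04), filtered with filterByExpr, which kept 12730 of 15113 genes, and tested with edgeR 4.0.16 (robust quasi-likelihood fit) in R 4.3.3. A normalized count is a count rescaled to a library of mean effective size. P-values were adjusted by the Benjamini-Hochberg method over all genes tested. Neighbouring genes were compared by the log2 ratio of their counts in an exact permutation test (scipy 1.17.1). The fits were tested on simulated data. The alternatives, with limma 3.58.1 and DESeq2 1.42.0 among the tools, are summarized in the closing section. Positions and sequences come from GENCODE M21.

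The genes and the lists were chosen with earlier results of these data known. All 7 protein-coding mitochondrial genes, the rows of the ribosomal and tested transfer RNAs, and the 3 nuclear copies are reported. From each nuclear list, the genes past all 3 thresholds are named or, where there were fewer than 3, those with the lowest p-values up to 3. The 3 genes most similar to each mitochondrial gene were taken by Pearson correlation of log2 CPM over the 12 libraries.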

Additional observations from a re-analysis of the deposited data

Results flagged for a closer look

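In groups of 6 libraries, a value far from the others was looked for in 42 groups, and 2 were found, where chance gives about 1 in 20. The normalized count of mt-Nd6 was 60.2 in BAM15 replicate 1, and the other 5 BAM15 libraries were between 29.2 and 34.2. The percent of reads on transfer RNA genes was 0.0106 in vehicle replicate 2, and between 0.00684 and 0.00792 in the other vehicle libraries.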

How the results depend on the processing

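All 7 log2 fold changes kept their sign in every alternative run. At an adjusted p below 0.01, 3 to 5 genes passed against 4 in the report, and 6 passed when the threshold was 0.05. With the libraries numbered 1 to 3 alone, 1 gene passed all 3 thresholds instead of 3. With those numbered 4 to 6 alone, 6 nuclear list genes did instead of 2. The list genes past an adjusted p of 0.01 numbered 39 to 58 (47 in the report), and 60 passed at 0.05. Values that changed sign were near 0: the mt-Co1 interaction (0.086 with library size only, 0.0033 with DESeq2), mt-Ti (-0.16 in numbers 4 to 6) and mt-Tq (0.10 in numbers 1 to 3, 0.0092 without BAM15 replicate 5 and 0.031 without BAM15 replicate 6, in a range of -0.21 to 0.031 over the 12 single omissions). The cause was not tested. Leaving out 1 library at a time, 4 to 5 of the 7 passed, and 39 to 47 list genes.

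Same-numbered libraries deviated together at correlations of -0.0756 to 0.311, above 0.1 in 4 of 6 pairs, and 2 of 6 BAM15 and 0 of 6 vehicle libraries correlated best with their own number, so the numbers did not pair the libraries singly. They did carry structure: BAM15 replicates 1 to 3 correlated with vehicle replicates 1 and 3 at 0.20 to 0.36 and with vehicle replicates 4 and 6 at -0.34 to -0.16, BAM15 replicates 4 to 6 did the opposite, and vehicle replicates 2 and 5 were mixed. With the replicate number as a block, 5 of 7 genes and 46 list genes passed, and the mt-Nd6 log2 fold change had an adjusted p of 0.00435 by edgeR. With that block, 7 of 8 neighbour ratios differed at an adjusted p below 0.05 in the exact permutation test.

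Depth limits mt-Nd6 and the transfer RNA rows, with few reads per library. Multiple matches, read positions and strand could not be examined in gene counts.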

Other observations

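The genes most similar to each mitochondrial gene over the 12 libraries were mostly nuclear. These values describe libraries that share a 2-condition contrast, and any gene that differs strongly between the conditions scores high. For mt-Co1 they were Hist1h1c, Fkbp11 and Atp2a3, the first with a Pearson r of 0.995, and for mt-Nd5 Kcnj16 (0.985), Boc and Ndufa4l2. For mt-Nd1 they were Suox (0.975), mt-Nd2 (0.962) and Casp6, and for mt-Nd2 Mgarp (0.972), mt-Nd1 and Stx12. The best match was lower for the genes that did not pass the test: Cd151 for mt-Nd4 (0.883), Jmjd4 for mt-Nd6 (0.912) and Ficd for mt-Cytb (0.872).

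With the mean of each condition subtracted, mitochondrial genes appeared among the closest matches of 4 of the 7. mt-Nd4 came first for mt-Nd1 (Pearson r 0.881). mt-Nd2 and mt-Co1 came second for each other (0.931), after Cep44 for mt-Nd2 and Rap2a for mt-Co1. mt-Co1 was also among the closest 3 for mt-Nd5 (0.824). Over the 12 libraries without that step, mt-Co1 and mt-Nd2 had an r of -0.83, since one rose and the other fell. All values are on log2 CPM of the same libraries.

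The transfer RNA rows mt-Tf and mt-Ts2 had too few reads to be tested.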
